A study of Mus musculus with 6 samples.

Results

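The proteins of the cytosolic ribosome are encoded in mouse by single active genes scattered over nearly every chromosome, and transcripts of this family were measured here in cells lacking the mitochondrial protease YME1L. Members were the loci of the count table with a symbol of the form Rpl or Rps plus a number (with an optional a, l or x), Rplp0, Rplp1, Rplp2 or Rpsa. The rule gave 82 of 51499 loci, 50 for the large and 32 for the small subunit, on 19 chromosomes. Of these, 75 were core genes and 7 were paralogs or derived copies (Rpl3l, Rpl6l, Rpl10l, Rpl32l, Rpl39l, Rps4l and Rps27l). GENCODE annotates Rpl6l, Rpl32l and Rps4l as pseudogenes. The symbol rule leaves out some proteins of the ribosome, such as Fau and Rack1. The Rpl24 locus was merged with Zbtb11, and the Rpl13a locus with Flt3l and Gm45713, in the deposited table.

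Poly(A)-selected RNA was sequenced from mouse embryonic fibroblasts (MEFs) with 3 independent cultures of WT and 3 of Yme1l-/-. Primary MEFs carried loxP-flanked Yme1l alleles in both groups (the labels give WT as Yme1l fl/fl) and were immortalized with SV40 large T antigen. Both genotypes are clonal lines picked after Cre had been introduced, WT being lines in which genotyping found the alleles intact. The cultures therefore repeat clones, p-values measure the spread between cultures, and an effect of the genotype and a difference between clones cannot be told apart. The comparison asks how the family differs between these genotypes.

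Each ribosome carries a single copy of nearly every one of these proteins, and the phosphoproteins of the stalk are the main exception. Their mRNAs are among the most abundant of a growing cell and begin with a terminal oligopyrimidine (TOP) tract, a run of C and T letters at the transcription start. Through this tract mTORC1 and the RNA-binding protein LARP1 adjust their translation together, and surplus free ribosomal proteins are degraded. The family is also known for its very many processed pseudogenes, which lack introns and can be nearly identical to the mRNA.

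To show such runs of C and T letters, RefSeq windows (build GRCm38.p6) around annotated transcription starts were read. A window was found for 60 of the 82 members. A run of 8 or more C or T letters within 50 bases of the annotated start occurred in 51 of these 60 members (85.0%) and in 10563 of 26965 other genes (39.2%). On the opposite strand, such a run was found in 14 members (23.3%) and in 41.2% of other genes. The run is a letter match and need not lie at the start that the cells use. Among tested members the median log2(fold change) was -0.03 for the 49 with the run and 0.02 for the 8 without it. The following 30-base windows belong to the 4 members with the lowest and the 4 with the highest log2(fold change) among called members with a run, which is in capitals, so that the runs near genes whose transcripts fell can be set beside those whose transcripts rose. The runs begin 22 and 8 bases before the annotated start for Rps25 and Rpl14, and 4 to 35 bases after it for the other 6, so they are not shown to be the TOP element itself.
Rps7, chr12:28635912-28635941, minus strand: gctgtccccaCCTCTTTTCTTCCgccaccc
Rps25, chr9:44407682-44407711, plus strand: ggccaccgggCTTCCTTTTTTTCCgacatc
Rps21, chr2:180257399-180257428, plus strand: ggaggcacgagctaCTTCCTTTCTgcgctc
Rpl14, chr9:120571499-120571528, plus strand: gcagggcgggCCCTCTCTCTTCTCgctgag
Rps15, chr10:80292446-80292475, plus strand: gcagcccgtaCTTCCTTTTCCgagtaaccg
Rps26, chr10:128626484-128626513, minus strand: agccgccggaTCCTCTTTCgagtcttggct
Rpl37, chr15:5116631-5116660, plus strand: ggcgggggtgCTTTCTCTTCCggtctcttt
Rpl26, chr11:68901577-68901606, plus strand: tcgcgtgtagTTCTCTTTCCTTTTgcggcc
The first 4 windows are from transcripts that were lower in Yme1l-/- cells and the last 4 from transcripts that were higher.

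Libraries held 33180867 to 49351107 counted fragments. Levels are given as CPM, the count relative to the TMM-scaled total of the library, and log2(fold change) is Yme1l-/- over WT with its standard error (SE) from edgeR's quasi-likelihood test. A locus was called at an adjusted p under 0.05 (Benjamini-Hochberg over 13867 loci). The deleted gene Yme1l1 had a mean of 189 ± 5.16 CPM (SD, n = 3) over the WT cultures. Over the Yme1l-/- cultures it was 39.1 ± 1.34 CPM, a log2(fold change) of -2.27 ± 0.05. Of 12 fibroblast markers, 10 were tested, 8 were lower and 1 was higher in Yme1l-/-, with a summed level of 11808 to 12328 CPM in WT and 7438 to 7934 CPM in Yme1l-/-. Thy1 and Lum had 11 fragments or fewer in every library. The markers of other cell types were 12 loci, without the neuronal marker Tubb3 that had been planned. They summed to 35.2 to 37.2 CPM in WT, most of it Krt18, and to 6.46 to 7.62 CPM in Yme1l-/-. Of the 4 of these that were tested, Krt18 and Epcam were lower and Cd68 and Des higher, at 1.04 ± 0.14 and 2.60 ± 0.22, with Adgre1 and Myog at 0 in all libraries. The part of these marker differences in the results below was not tested. In bulk RNA, a change in the share of some cells and a change in RNA per cell cannot be told apart, and CPM are relative to the other transcripts of a library.

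The family did not move in a single direction. Of 78 members tested, 19 were higher and 17 lower in Yme1l-/- cells, and 42 were not called. Without Yme1l-/- replicate 1, the count of members lower was 28. In that fit 12 members gained a call in either direction and 4 lost theirs, with 66.7% of all loci called. With the replicate number as a block in the fit, 21 members were higher and 28 lower, which is 62.8% of the members beside 70.6% of all loci. DESeq2 called 19 members higher and 23 lower, beside 65.7% of all loci called, and edgeR with upper-quartile scaling 20 and 12, beside 67.6%. In the fit without the block, a call was made for 46.2% of the members, while 67.7% of all tested loci were called, 33.6% higher and 34.1% lower. Members had a median log2(fold change) of -0.04 (0.02 with upper-quartile scaling), with quartiles of -0.17 and 0.18, beside -0.00 with quartiles of -0.36 and 0.41 for all loci. No called member changed by 2-fold or more, whereas 17.7% of all tested loci were called with at least that size. The libraries of the 2 genotypes did not overlap for 37 members, 20 of them higher and 17 lower, and for 71.9% of all tested loci. The subunits gave similar counts. For the large subunit, 11 of 47 tested members were higher and 9 lower, with a median of 0.00, and for the small subunit 8 of 31 were higher and 8 lower, with a median of -0.04. SEs were small, with a median of 0.07 and values under 0.1 for 65 members.

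**Figure D1:**
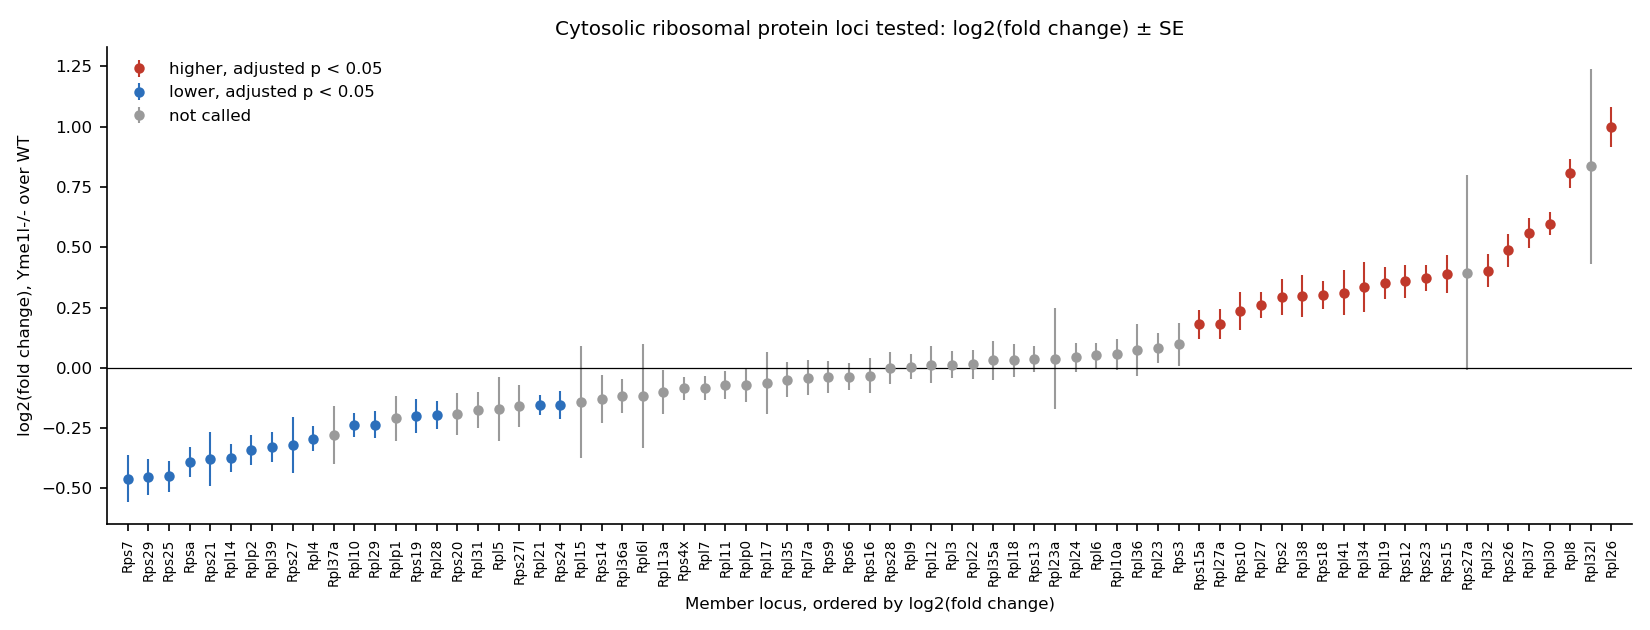
The log2(fold change) of 73 of the 78 tested members (Yme1l-/- over WT, y axis) is plotted as a point with its SE, in ascending order, with called members in red (19 higher) and blue (16 lower) and the rest in grey. The values run from -0.46 for Rps7 to 1.00 for Rpl26, and most points lie close to 0.

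Member loci took 5.20%, 4.75% and 4.68% of the counted fragments in WT replicates 1 to 3 and 5.61%, 5.04% and 5.03% in Yme1l-/- replicates 1 to 3. The shares of the genotypes overlapped, since WT replicate 1 lay above Yme1l-/- replicates 2 and 3. Means were 4.88% ± 0.28 in WT and 5.23% ± 0.33 in Yme1l-/- (SD, n = 3), a difference of 0.35 percentage points that ranged from 0.16 to 0.51 when single libraries were left out. It was 0.16 without Yme1l-/- replicate 1 and 0.51 without WT replicate 1. Between libraries with the same replicate number, the share was higher in Yme1l-/- by 0.41, 0.29 and 0.35 percentage points. The first replicate of both genotypes stood apart from the others. The CPM was highest in replicate 1 among the WT libraries for 74 of 78 members (94.9%) and among the Yme1l-/- libraries for 72 (92.3%), beside 33.7% and 39.1% of all tested loci. The median member lay 0.09 above the WT mean on the log2 scale in WT replicate 1 and 0.09 above it in Yme1l-/- replicate 1. It lay between -0.08 and -0.01 in the other 4 libraries. Without replicate 1 of both genotypes, a comparison chosen after the data were seen, 19 members were called higher and 28 lower by edgeR, beside 65.1% of all loci called, and the share differed by 0.32 percentage points.

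**Figure D2:**
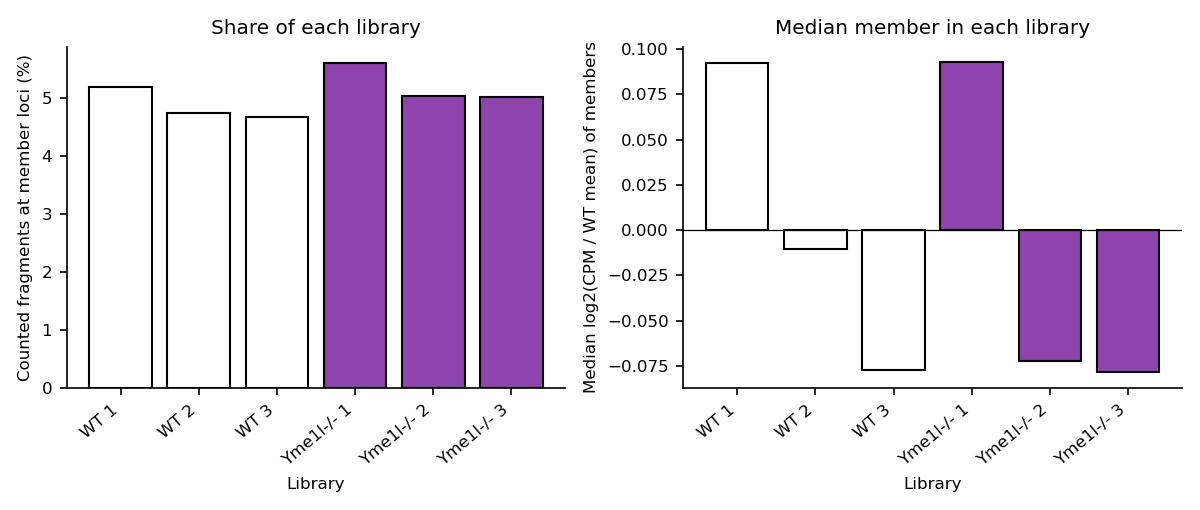
The left panel shows the percentage of counted fragments at member loci in each of the 6 libraries, and the right panel the median over 78 members of log2(CPM / mean CPM of WT). White bars are WT and purple bars are Yme1l-/-, each bar a single library without an error, and replicate 1 is the highest of its genotype in both panels.

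Rpl26 changed most among the called members. RPL26 is a large-subunit protein that also binds the 5′ region of p53 mRNA. Its transcript (chr11:68901583-68906989, mm10) was at 634, 609 and 569.7 CPM in WT and 1382, 1128 and 1110.2 CPM in Yme1l-/-. Every Yme1l-/- library exceeded every WT library, and the log2(fold change) was 1.00 ± 0.08 (adjusted p = 1.44e-06, edgeR).

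Rpl8, Rpl30 and Rpl37 followed, and all lie on chromosome 15. RPL8 sits near the peptidyl transferase centre and was measured at 1400.0, 1297 and 1252 CPM in WT and 2453, 2247 and 2203 CPM in Yme1l-/-, a log2(fold change) of 0.81 ± 0.06 (adjusted p = 5.06e-07). Rpl30, whose protein lies at the subunit interface, was at 268, 243 and 248 CPM in WT and 391, 373 and 384 CPM in Yme1l-/-, a log2(fold change) of 0.60 ± 0.05 (adjusted p = 6.84e-07). Rpl37 was at 307, 272 and 268 CPM in WT and 446, 401 and 403 CPM in Yme1l-/-, a log2(fold change) of 0.56 ± 0.06 (adjusted p = 9.81e-06). For these 3 genes the libraries of the genotypes were clearly separated, all 3 Yme1l-/- libraries being higher. When the median of the other loci on the chromosome was subtracted (described below), the calls of Rpl30 and Rpl37 were lost, at 0.01 and -0.03. Rpl8 kept its call, but its value shrank from 0.81 to 0.21 (adjusted p = 0.010, edgeR).

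Rps26, whose protein lines the mRNA exit channel and is loaded by the chaperone TSR2, was at 538, 471 and 479 CPM in WT and 758, 657 and 672 CPM in Yme1l-/-. The log2(fold change) was 0.49 ± 0.07 (adjusted p = 7.44e-05). Rpl32 was at 933, 851 and 796 CPM in WT and 1220.4, 1121 and 1071 CPM in Yme1l-/- and rose by 0.40 ± 0.07 on the log2 scale (adjusted p = 3.19e-04). The genotypes did not overlap for either gene, but with chromosome medians removed Rpl32 was at 0.06 and not called (adjusted p = 0.46). Rps26 was then at 0.19 and still called (adjusted p = 0.033, edgeR). Rps27a, which encodes a fusion of ubiquitin and the small-subunit protein, had an equally high log2(fold change) of 0.39 ± 0.41 but was not called (adjusted p = 0.44). Its levels of 428, 245 and 357 CPM in WT and 591, 262 and 501 CPM in Yme1l-/- overlapped widely and were low in replicate 2 of both genotypes. With the replicate number as a block it was called (adjusted p = 0.023). The derived copy Rpl32l had only 5 to 24 fragments in a library and a log2(fold change) of 0.84 ± 0.41, which was not called (adjusted p = 0.089).

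The other called members that rose were Rps15, Rps23, Rps12, Rpl19, Rpl34, Rpl41, Rps18, Rpl38, Rps2, Rpl27, Rps10, Rpl27a and Rps15a, with log2(fold change) from 0.39 down to 0.18. Rps23 forms part of the decoding centre, and its log2(fold change) was 0.37 ± 0.05 (adjusted p = 9.42e-05) with levels of 652, 636 and 589.8 CPM in WT and 839.6, 802 and 786 CPM in Yme1l-/-, all Yme1l-/- libraries being higher. Rpl38, known for its role in the translation of Hox mRNAs in the mouse embryo, was at 169, 152 and 135 CPM in WT and 206, 178 and 177 CPM in Yme1l-/- and changed by 0.30 ± 0.09 (adjusted p = 0.014), again without overlap. It was at -0.06 with chromosome medians removed and not called (adjusted p = 0.57). Rpl41, which encodes the shortest of these proteins, was called higher (log2(fold change) 0.31 ± 0.09) although WT replicate 1 lay just above the lowest Yme1l-/- library, and the call was lost without WT replicate 2 or 3. Calls of Rpl34, Rps10, Rpl27a and Rps15a were also lost without at least 1 library. Of these 13 members, only Rps23, Rpl34, Rpl27a and Rps15a kept their call with chromosome medians removed.

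Among the members that fell, Rps7 and Rps29 had the lowest log2(fold change), and both lie on chromosome 12. Rps7, whose protein has roles in small-subunit processing and binds MDM2, was at 773, 757 and 688 CPM in WT and 629.5, 500.1 and 483 CPM in Yme1l-/-, a log2(fold change) of -0.46 ± 0.10 (adjusted p = 0.0022). Rps29, a zinc-binding protein of the small-subunit head, was at 433, 372 and 383 CPM in WT and 320.1, 275 and 273 CPM in Yme1l-/-, a log2(fold change) of -0.45 ± 0.07 (adjusted p = 3.28e-04). All Yme1l-/- libraries were below all WT libraries for both. Neither was called with chromosome medians removed, at -0.02 and -0.02.

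Rps25, needed for initiation at several internal ribosome entry sites, was at 700.0, 673 and 633 CPM in WT and 534, 460.1 and 474 CPM in Yme1l-/-, a log2(fold change) of -0.45 ± 0.06 (adjusted p = 7.58e-05). Rpsa, also known as the laminin receptor precursor and required for small-subunit maturation, was at 2088, 1865 and 1932 CPM in WT and 1598, 1465 and 1421 CPM in Yme1l-/-, a log2(fold change) of -0.39 ± 0.06 (adjusted p = 1.77e-04). Rpl14 was at 578, 508 and 499 CPM in WT and 416, 403 and 403 CPM in Yme1l-/-, a log2(fold change) of -0.38 ± 0.06 (adjusted p = 1.54e-04). These 3 genes lie on chromosome 9, and none had a Yme1l-/- library at the level of a WT library. All 3 calls were lost with chromosome medians removed, at -0.09, -0.03 and -0.02.

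Rps21 on chromosome 2 was at 333, 294 and 264 CPM in WT and 262, 218 and 206 CPM in Yme1l-/-, a log2(fold change) of -0.38 ± 0.11 (adjusted p = 0.019). The gap between its genotypes was narrow, with WT replicate 3 just above Yme1l-/- replicate 1, and the call was lost without Yme1l-/- replicate 2. Rpl39, whose protein lines the nascent peptide exit tunnel, was at 291, 273 and 271 CPM in WT and 245, 214 and 207 CPM in Yme1l-/-, a log2(fold change) of -0.33 ± 0.06 (adjusted p = 6.93e-04), without overlap. Its value was -0.12 with chromosome medians removed and not called (adjusted p = 0.12). Besides Rplp2, described with the stalk, the other members that fell included Rps27, Rpl4, Rpl10, Rpl29, Rps19, Rpl28, Rpl21 and Rps24, from -0.32 to -0.15. Rps19, mutated in Diamond-Blackfan anaemia, was called at -0.20 ± 0.07 (adjusted p = 0.025) although Yme1l-/- replicate 2 exceeded the lowest WT library, and this call was lost without WT replicate 1 or 3 or without Yme1l-/- replicate 1 or 3. Calls of Rps27, Rpl28 and Rps24 were also lost without at least 1 library. With upper-quartile scaling the calls of Rps27, Rps19, Rpl28, Rpl21 and Rps24 were lost (adjusted p from 0.057 for Rpl21 to 0.16 for Rps24). Those of Rps27, Rpl4, Rpl10, Rpl29 and Rps24 were lost with chromosome medians removed. Rpl10, which completes the peptidyl transferase centre late in assembly, was at 626, 605 and 582 CPM in WT and 528, 498 and 513 CPM in Yme1l-/-, a log2(fold change) of -0.24 ± 0.05 (adjusted p = 0.0012), and did not overlap. It was at -0.03 with chromosome medians removed (adjusted p = 0.64).

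**Figure D3:**
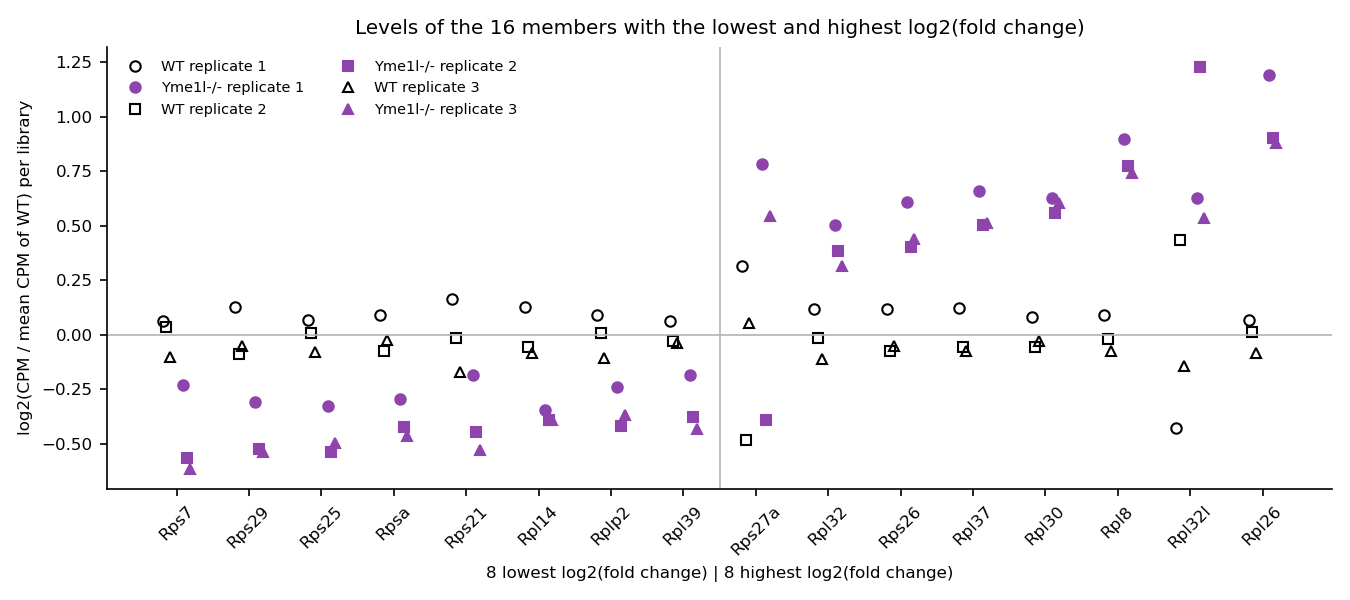
Each point is the level of a member in a single library as log2(CPM / mean CPM of WT), for the 8 members with the lowest and the 8 with the highest log2(fold change), with open symbols for WT, filled symbols for Yme1l-/- and a shape per replicate number. The genotypes are separated for all of these members except Rps27a, whose points overlap.

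The ribosomal stalk recruits translation factors and is built from Rplp0 and dimers of Rplp1 and Rplp2. Rplp0 was at 3843, 3459.8 and 3500.1 CPM in WT and 3803, 3239 and 3238 CPM in Yme1l-/-, a log2(fold change) of -0.07 ± 0.07 that was not called (adjusted p = 0.4). Rplp1 was at 1356, 1150.1 and 1113 CPM in WT and 1173, 989.7 and 967 CPM in Yme1l-/-, with -0.21 ± 0.09 (adjusted p = 0.069, not called). Rplp2 was at 517, 488 and 450.4 CPM in WT and 410.4, 363 and 376 CPM in Yme1l-/- and changed by -0.34 ± 0.06 on the log2 scale (adjusted p = 5.04e-04). Only for Rplp2 were the genotypes apart, while for Rplp0 and Rplp1 the Yme1l-/- replicate 1 lay within the WT range. Rplp1 was lower in Yme1l-/- between libraries of each replicate number, and it was called by DESeq2 (adjusted p = 0.018) and by edgeR with the block (adjusted p = 3.44e-04), though with chromosome medians removed it was at 0.15 (adjusted p = 0.19). Rplp0 was called without Yme1l-/- replicate 1 (adjusted p = 0.038). The 5S particle, in which RPL5 and RPL11 bind 5S RNA and can inhibit MDM2, was not called for either transcript in the fit without a block. Rpl5 was at 1352, 1190.0 and 1145 CPM in WT and 1333, 975 and 966 CPM in Yme1l-/- and Rpl11 at 577, 542 and 506 CPM in WT and 545, 510.0 and 493 CPM in Yme1l-/-, with log2(fold change) of -0.17 ± 0.13 and -0.07 ± 0.06 (adjusted p = 0.29 and 0.31). Yme1l-/- replicate 1 lay among the WT libraries for both, and Rpl5 was called as lower without it (adjusted p = 0.0010) and with the replicate block (adjusted p = 0.0070). Rps3 (mRNA entry channel), Rps6 (a substrate of S6 kinase) and Rpl13a (a subunit of the GAIT complex) were likewise not called, at 0.10 ± 0.09, -0.04 ± 0.06 and -0.10 ± 0.09 (adjusted p = 0.36, 0.58 and 0.36). Without Yme1l-/- replicate 1, Rpl13a was called as lower (adjusted p = 0.0034).

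Members lay close to the other genes of their chromosome. In these cells the median log2(fold change) of the loci other than members differs between chromosomes, from -0.43 on chromosome 12 to 0.59 on chromosome 15. Across the 78 tested members, the log2(fold change) and the median of the other tested loci on the same chromosome had a Pearson r of 0.79 and a Spearman rho of 0.78. These are descriptions across genes, which are not independent replicates and share the same 6 libraries. For all 13802 tested loci placed on a chromosome, r was 0.19 and rho 0.37. For members, the SD of the log2(fold change) was 0.30 and became 0.19 once the chromosome median was subtracted. A distance of at most 0.2 from the chromosome median was found for 66 of 78 members (84.6%) and for 34.4% of all loci. The family was not alone in this. For the 34 initiation and elongation factors described below, r was 0.87, rho 0.87 and the share within 0.2 of the median 70.6%, and for 8 ribosomal protein loci outside the symbol rule r was 0.77 and the share 87.5%, the exception being the pseudogene Rps6-ps1.

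Calls in the 2 directions fell on different chromosomes with few exceptions. On the 5 chromosomes of members whose other loci had a median above 0.1 (6, 10, 11, 15 and 17), 15 of 24 tested members (62.5%) were called higher and 0 lower, where of 3696 other loci on them 2218 were higher and 15.3% were lower. On the 8 chromosomes with a median below -0.1 (1, 3, 8, 9, 12, 14, 18 and X), 12 of 23 (52.2%) were called lower and 1, Rpl34, higher, beside 52.2% lower and 16.2% higher of 4757 other loci. On the remaining 6 chromosomes, 3 of 31 were higher and 5 lower (9.68% and 16.1%), beside 29.9% and 32.0% of 4827 other loci. On chromosome 12, Rps7 and Rps29 had -0.46 and -0.45, beside -0.43 for 501 other loci. Rpl30 and Rpl37 lay at 0.60 and 0.56, beside 0.59 for the other 541 loci of chromosome 15. Chromosome 9 carried 7 tested members, of which 5 were called lower, and their median was -0.29 beside -0.36 for 778 other loci. Chromosome 7 carried 14, the most of any, with a median of -0.04 beside -0.01. In the libraries taken singly, the 7 members on chromosome 9 had a median of -0.27, -0.30 and -0.32 on the log2 scale relative to the WT mean in Yme1l-/- replicates 1 to 3, and the 4 on chromosome 15 had 0.65, 0.53 and 0.56. The shift was thus present in all 3 cultures. What sets the medians of the chromosomes was not tested, and genotype and clone cannot be told apart here. No karyotype of the clones was used here. A difference in chromosome copy number between the clones and a change in expression per copy cannot be told apart, and this holds for every log2(fold change) given.

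**Figure D4:**
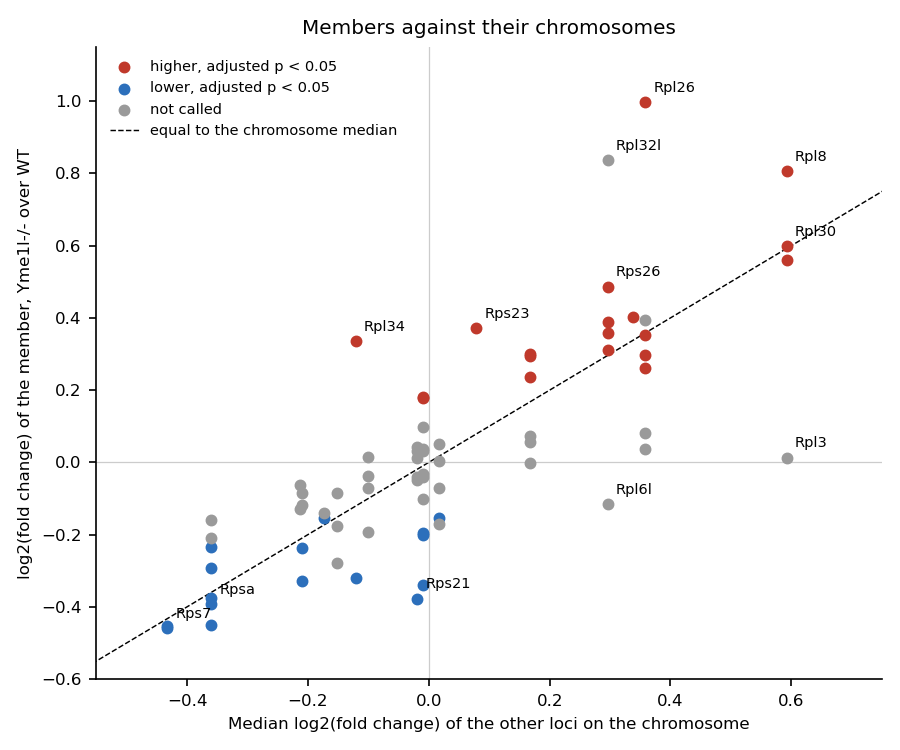
The log2(fold change) of 73 tested members (y axis) is plotted against the median log2(fold change) of the other tested loci on its chromosome (x axis), with called members in red (higher) and blue (lower) and the dashed line marking equal values. Most of the points lie near the line, and Rpl26, Rpl34 and Rpl3 are among those far from it.

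When the chromosome median was subtracted from every locus and the fit repeated, 16 members (20.5%) were called, 8 higher and 8 lower, beside 62.8% of all tested loci. Of the 36 calls made without it, 12 were kept in the same direction, 24 were lost, and 4 were called only with it. The 8 members above their chromosome were Rpl26, Rpl34, Rps23, Rpl8, Rps26, Rpl27a, Rps15a and Rps4x. The 8 below it were Rpl3, Rps21, Rplp2, Rpl23, Rps19, Rpl28, Rpl21 and Rps28. Relative to the median of tested loci within 5 Mb, Rpl28 was at -0.02 and Rpl21 at 0.03, and the rest of these 8 lay from -0.68 to -0.13. Rpl26, Rpl8, Rps26, Rps23 and Rplp2 were called in the same direction by every alternative that was run, the removal of chromosome medians included. With that removal, Rpl8 shrank from 0.81 to 0.21 and Rps26 from 0.49 to 0.19. Relative to the tested loci within 5 Mb, Rpl26 was at 0.36, Rps23 at 0.13, Rpl8 at 0.12, Rps26 at 0.03 and Rplp2 at -0.13. These distances were not tested.

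Rpl3 was the member farthest below its chromosome. RPL3 is a core protein of the peptidyl transferase region, and its gene on chromosome 15 (chr15:80077791-80091868, mm10) was at 1150.3, 1084 and 1076 CPM in WT and 1167, 1127 and 1048 CPM in Yme1l-/-. The levels overlapped, with a log2(fold change) of 0.01 ± 0.06 (adjusted p = 0.84), while the other loci of chromosome 15 had a median of 0.59 and the 178 tested loci within 5 Mb one of 0.69. Relative to the chromosome it was -0.58 (adjusted p = 4.63e-06). Rpl26 lay farthest above among the called members, at 0.64 relative to chromosome 11 (adjusted p = 5.72e-05), and the 126 tested loci within 5 Mb of it had a median of 0.63. Rpl34 was 0.46 above chromosome 3 (adjusted p = 0.0053) and Rps23 0.29 above chromosome 13 (adjusted p = 7.07e-04). Rps21 and Rplp2 were -0.36 and -0.33 relative to theirs (adjusted p = 0.026 and 7.49e-04).

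Most of the 42 members that were not called are named here by size. Those with a log2(fold change) between -0.28 and -0.10 included Rpl37a, Rplp1, Rps20, Rpl31, Rpl5, Rps27l, Rpl15, Rps14, Rpl36a, Rpl6l and Rpl13a (adjusted p from 0.058 to 0.67 by edgeR). Apart from Rpl6l, each of these was called in some alternative fit, such as Rplp1 and Rpl5 with the replicate block. Between -0.08 and -0.00 lay Rps4x, Rpl7, Rpl11, Rplp0, Rpl17, Rpl35, Rpl7a, Rps9, Rps6, Rps16 and Rps28 (adjusted p from 0.14 to 0.98). Between 0.00 and 0.10 lay Rpl9, Rpl12, Rpl3, Rpl22, Rpl35a, Rpl18, Rps13, Rpl23a, Rpl24, Rpl6, Rpl10a, Rpl36, Rpl23 and Rps3 (adjusted p from 0.25 to 0.94). Rps27a and Rpl32l, described above, were not called either. The libraries of the genotypes did not overlap for some members that were not called, such as Rpl32l, Rps4x and Rpl7, and they overlapped for 3 of the called members, Rps27, Rps19 and Rpl41.

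The paralogs with tissue-restricted expression were close to silent. Rpl10l, a retrocopy used in spermatogenesis, had 0 fragments in all 6 libraries, which allows up to 3 fragments in each, or 0.059 to 0.092 CPM. Rpl39l, also known from testis, had 1, 3 and 1 fragments in WT and 0 in every Yme1l-/- library. Rpl3l, the striated-muscle form of Rpl3, had 1, 0 and 1 fragments in WT and 3, 2 and 3 in Yme1l-/-. Rps4l had 3, 10 and 5 in WT and 1, 0 and 1 in Yme1l-/-. These 4 did not pass the filter on low counts and no fold is given. Differences between the genotypes were not tested at these counts. The limits cover counting error only.

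Paralogs that were expressed were set against their partners. The log2 ratio of counts of Rps27l, a p53 target, to those of Rps27 was -1.03, -0.97 and -0.88 in WT and -0.83, -0.75 and -0.82 in Yme1l-/-, so that every Yme1l-/- library was higher, by 0.16 on average. The ratio of Rpl7l1 to Rpl7 was also higher in all 3 Yme1l-/- libraries, by 0.23, and that of the locus holding Rpl36al to Rpl36a was lower in all 3, by 0.29. That locus is merged with Dnaaf2 and Pole2, and its counts cannot be divided among the genes. For Rpl22l1 over Rpl22, means of -1.10 ± 0.06 in WT and -1.07 ± 0.14 in Yme1l-/- (SD, n = 3) overlapped. An exact two-sided permutation test gave p = 0.10 for the first 3 pairs, the smallest value that 3 against 3 libraries can give, and p = 0.90 for the last, with values of 0.13 and 0.90 after adjustment over the 4 pairs. Paralog and partner lie on different chromosomes in each pair. With chromosome medians removed from the fitted values, an alternative chosen after the data were seen, the difference was 0.40 for Rps27l over Rps27 and 0.06 for Rpl22l1 over Rpl22. It turned to -0.09 for Rpl7l1 over Rpl7 and shrank to -0.06 for Rpl36al over Rpl36a.

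Near-identical copies bear on many of these values. By sequence (at least 90% identity over 70% of the copy), 948 loci of pseudogenes or retrocopies matched 76 of the members, and 626 of these loci had a fragment. Together they held 10.8% to 11.6% of the members' own fragments in a library. The way in which fragments with several possible origins were assigned is not given in the sources used here. For Rpl17, the 41 matching loci held 421% of the fragments of the gene itself, for Rpl23a 290%, for Rpl21 136% and for Rpl29 61.7%, so levels of these 4 members are uncertain. Next came Rpl14 at 45.1%, Rps27a at 40.55% and Rpl7a at 39.2%, whose levels are less certain too. The share was under 1% for 17 of the 76 matched members, among them Rpl8, Rps18, Rpl32 and Rpl41.

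Among copies with many fragments, most lay nearer to the member they resemble than to the chromosome they lie on. No such comparison is given for the rest of the 248 copies tested. Of 57 copies with at least 6000 fragments in all, a tested log2(fold change) and a position on another chromosome than their member, 43 were nearer to the member's value than to the median of their own chromosome. The median distance was 0.08 to the member and 0.23 to the chromosome. Pearson's r was 0.63 with the member and 0.12 with the chromosome median, with rho of 0.77 and 0.15, as descriptions across loci that may share fragments with the member. Gm15772 on chromosome 5, a copy of Rpl26, had a log2(fold change) of 1.08, where its chromosome had 0.02. Rpl19-ps11 on chromosome 8 had 0.33 beside 0.35 for Rpl19 and -0.32 for the chromosome. Rpl14-ps1 on chromosome 7 had -0.37 beside -0.38 for Rpl14. Other copies departed from their member, such as Rpl3-ps1 at 0.38 beside 0.01 for Rpl3 (adjusted p = 0.074, not called) and Gm5786 at -0.27 beside 0.29 for Rps2. The most variable was Gm6311 on chromosome 13, a copy of Rps2, with 103, 3705 and 97 fragments in WT and 14446, 1891 and 14820 in Yme1l-/-, so that replicate 2 stood apart in both genotypes. When the copies' fragments were added to the members, an alternative chosen after the data were seen, 19 members were called higher and 18 lower, beside 69.0% of all loci called.

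**Figure D5:**
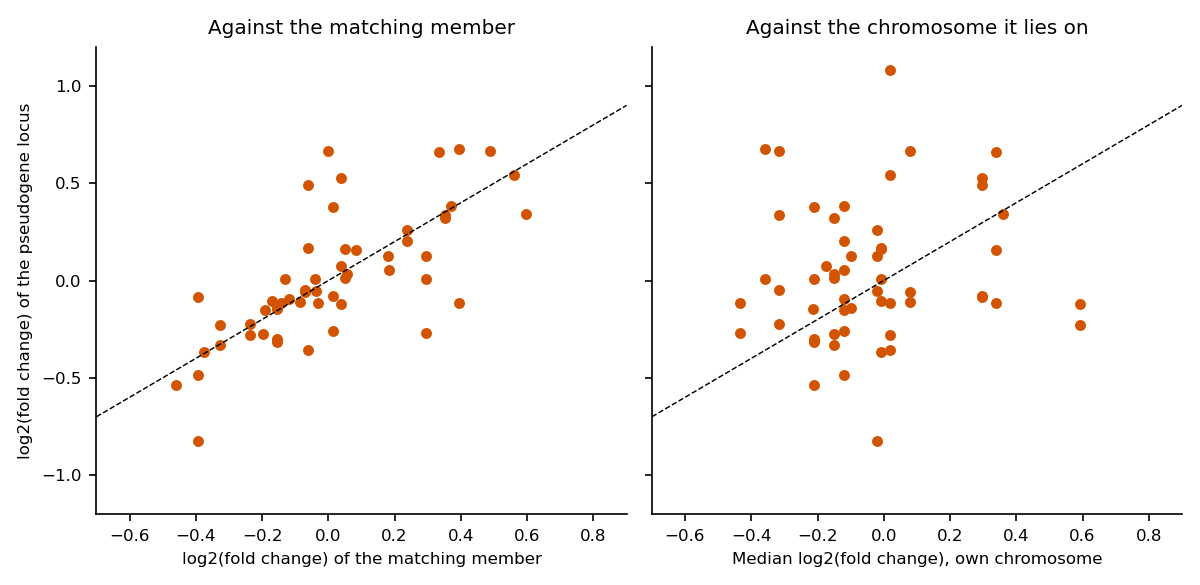
The log2(fold change) of pseudogene loci with at least 6000 fragments (y axis) is plotted against that of the matching member (left) and against the median of the chromosome the copy lies on (right), with dashed lines for equal values. Of 57 loci 56 are drawn and 1 lies beyond the axes, and the points follow the line more closely in the left panel.

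The 4 members with the largest SE were Rps27a, Rpl32l, Rpl15 and Rpl6l, with Rpl23a next. The coefficient of variation of Rps27a was 26.8% in WT and 37.7% in Yme1l-/-, beside medians of 6.35% and 7.36% over the members. With the fragments of its 14 copies added, it was 15.2% and 29.6%. For Rpl23a, it was 24.6% in WT and became 5.39% with the 34 copies added. The sum of gene and copies thus varied less between libraries than the gene alone in both cases.

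Per length, the authors' combined FPKM values (a single value per genotype, with no error) placed Rplp1 first in WT at 3798, followed by Rpl41 at 3476, Rplp0 at 3137 and Rps15 at 2868. In Yme1l-/- the order began with Rpl41 at 4243, Rps15 at 3743, Rpl26 at 3477 and Rpl32 at 3356. Over the core members the median was 1060 FPKM in WT and 1090 FPKM in Yme1l-/-. The lowest core member was Rpl17, at 76.7 and 73.5 FPKM, followed by Rpl21 at 189 and 179 FPKM, both with more fragments at their copies than at the gene.

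Many ribosomal protein genes carry small nucleolar RNAs in their introns. In GENCODE, 28 members held 55 such genes. Poly(A) libraries do not measure the small RNAs, but the host transcripts were measured, and 6 of 28 were higher and 7 lower with a median log2(fold change) of -0.04, beside 13 higher and 10 lower of 50 other members with the same median. The share called was 46.4% for the hosts, close to the 46.2% of all members, and below the 67.7% of all loci (33.6% higher and 34.1% lower).

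Other parts of the translation apparatus were taken from lists. Their counts stand beside 67.7% of all loci called (33.6% higher and 34.1% lower), or 62.8% with chromosome medians removed. Of 34 initiation and elongation factors, a list that also holds the TOP mRNAs Tpt1 and Pabpc1, 13 were higher and 9 lower (64.7% called), with a median of 0.04. With chromosome medians removed, 9 were higher and 8 lower. The lowest called were Eif5, at -0.89 ± 0.05, and Tpt1, at -0.49 ± 0.06, and the highest called were Eif3l (0.80 ± 0.04) and Eif3d (0.74 ± 0.05), both on chromosome 15. Eif2s3x had the same value as Eif5 to 2 decimals, -0.89 ± 0.30, but was not called (adjusted p = 0.052, edgeR). Some TOP mRNAs of this list lay near the median of their chromosome, among them Eef1a1 at -0.43 ± 0.05 on chromosome 9 (median -0.36), Pabpc1 at 0.61 ± 0.05 on chromosome 15 (0.59) and Eef2 at 0.27 ± 0.05 on chromosome 10 (0.30). These 3 were called. Tpt1 on chromosome 14 (median -0.17) lay farther from it. Eef1g at 0.29 ± 0.05 on chromosome 19 (0.12) and Eef1b2 at 0.04 ± 0.07 on chromosome 1 (-0.15) lay within 0.2 of it, but both were called as higher with chromosome medians removed (adjusted p = 0.0070 and 0.030). Among regulators of ribosomal protein mRNA translation, 8 of 15 tested were higher and 2 lower, and 5 and 5 with chromosome medians removed. The share called, 66.7%, was close to the 67.7% of all loci. Deptor, an inhibitor of mTOR, rose by 2.37 ± 0.07 and Sesn2, which restrains mTORC1, by 1.02 ± 0.07, while Rheb, its activator, changed by -0.25 ± 0.05 and Rptor by -0.13 ± 0.05. Larp1 was at 0.33 ± 0.05, near the median of chromosome 11. Of the 11 assembly partners of single ribosomal proteins, 3 were higher and 3 lower (1 and 5 with chromosome medians removed), from Bccip at -0.69 ± 0.05 and Rrs1 at -0.54 ± 0.06 to Pdcd2 at 0.22 ± 0.06 and Ltv1 at 0.35 ± 0.05. Of 10 ribosome quality control loci, 4 were higher and 4 lower (4 and 3 with chromosome medians removed). The highest were the locus holding Pelo, merged with Itga1, at 1.79 ± 0.05 and Ascc3 at 1.21 ± 0.06, and the lowest Abce1 at -0.68 ± 0.05 and Nemf at -0.31 ± 0.05.

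Ribosomal proteins that the symbol rule left out gave 2 higher and 3 lower of 8 loci, beside 67.7% of all loci called. The list also holds the pseudogene Rps6-ps1 on chromosome 15. Rps6-ps1 alone was called with chromosome medians removed, beside 62.8% of all loci. It had a log2(fold change) of 0.00 ± 0.09, which became -0.59 (adjusted p = 2.07e-04), and none of the other 7 was called. Rack1, a scaffold protein of the small subunit, rose by 0.46 ± 0.08 on chromosome 11, and Rpl7l1 by 0.15 ± 0.06 on chromosome 17. Rps27rt, a retrocopy of Rps27, was at -0.52 ± 0.13 on chromosome 9, and the locus of Rpl36al at -0.41 ± 0.05 on chromosome 12. Fau, not called, was at -0.04 ± 0.10. The chromosome medians were 0.36, 0.17, -0.36 and -0.43 for the first 4.

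The mitochondrial ribosomal proteins, taken by the symbols Mrpl and Mrps, are given for comparison, with no test of the difference between the families. Of 77 tested loci, 55 were higher and 8 lower in Yme1l-/- cells, which is 81.8% called beside 67.7% of all loci, and the median log2(fold change) was 0.26 beside -0.04 for the cytosolic family. With chromosome medians removed, 45 were higher and 6 lower (66.2% called, beside 62.8% of all loci), where the cytosolic family had 8 and 8. The distance from the chromosome median was at most 0.2 for 48.1% of them and for 84.6% of the cytosolic members.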

How the data were processed

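Libraries were prepared with a stranded poly(A) kit, and per the labels and the study's methods read pairs were mapped to GRCm38 (mm10) with HISAT2 2.0.4, assembled with StringTie 1.3.3 and compared with Cuffdiff 2.2.1. The authors deposited raw fragment counts per locus, without normalization, for 6 libraries, and a comparison table with FPKM as 1 combined value per genotype. Its fold changes, test statistics, p-values and q-values were not used. No column of per-sample values was left unassigned.

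Counts were filtered with filterByExpr (minimum count 10), scaled with TMM and tested across all loci with edgeR 4.0.16 (robust quasi-likelihood test, two-sided) in R 4.3.3. No 2 libraries of a genotype matched within counting error (chi-square per degree of freedom at least 7.91). The members and lists were chosen with earlier results of these data known. Members were named as the 8 highest and 8 lowest log2(fold change), members not called or not tested, those of pairs, the stalk, the 5S particle, Rpsa, Rps3, Rps6, Rps19, Rps27a, Rpl10, Rpl13a, Rpl38 and those on chromosomes 12 and 15. Others were named after their values were seen. Some members were counted but are not reported or drawn by name here. Of other lists the 2 highest and 2 lowest called were named, and Eef1a1, Eef1b2, Eef1g, Eef2, Eif2s3x, Pabpc1, Rps6-ps1 and Larp1 were added.

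Gene positions are from GENCODE vM21. Copies were matched with BLAST+ 2.17.0, and promoter windows are from RefSeq. Alternatives were RLE or upper-quartile scaling, DESeq2 1.42.0, other filters, the replicate number as a block, each library left out, chromosome medians removed, thinning to the smallest total and pseudogene loci added. The addition of sequence-matched copies, the omission of replicate 1 of both genotypes and the paralog ratios with chromosome medians removed were chosen after the data were seen.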

Additional observations from a re-analysis of the deposited data

How the results depend on the processing

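Of the 36 members called, 25 (14 higher and 11 lower) kept their call and direction in every alternative other than the removal of chromosome medians, and 5 kept it in all. Leaving out each library in turn gave 14 to 19 members higher and 13 to 28 lower, a median log2(fold change) from -0.08 to 0.04, and 8847 to 9406 of all loci called. The count of 28 lower was without Yme1l-/- replicate 1. Calls of Rpl27a, Rpl28, Rpl34, Rpl41, Rps10, Rps15a, Rps19, Rps21, Rps24 and Rps27 were lost without at least 1 library. The difference in the share of fragments was 0.16 to 0.51 percentage points. Without replicate 1 of both genotypes, 19 members were higher and 28 lower, beside 65.1% of all loci called. With DESeq2, 19 members were higher and 23 lower (9106 of all loci called), and with upper-quartile scaling 20 and 12, with a median of 0.02 (9372 of all loci called). Calls of Rps27, Rps19, Rpl28, Rpl21 and Rps24 were lost with upper-quartile scaling. The sign of the median thus depended on scaling.

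The labels do not say what a replicate number shares. Deviations of same-numbered libraries correlated at 0.20, -0.16 and 0.05 over all loci, which gives no pairing there, but at 0.51, 0.63 and 0.19 over the members. With the replicate block, 21 members were called higher and 28 lower.

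With chromosome medians removed, 8 members were higher and 8 lower. Values changed sign for 23 members, 13 of them called in neither fit. The others were Rpl19 (-0.00483), Rpl27 (-0.10), Rpl38 (-0.0598), Rpl23 (-0.27), Rpl37 (-0.0324), Rpl3 (-0.58), Rps24 (0.0163), Rpl4 (0.0662), Rpl29 (0.12) and Rps4x (0.12). This is by construction, since the median of the chromosome is subtracted.

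With chromosome medians removed, the paralog to partner ratio Rpl7l1 over Rpl7 changed sign (-0.0875). Without each library in turn, the difference in log2 ratio was 0.13 to 0.20 for Rps27l over Rps27, 0.20 to 0.27 for Rpl7l1 over Rpl7, -0.33 to -0.25 for Rpl36al over Rpl36a and -0.0547 to 0.0827 for the paralog to partner ratio Rpl22l1 over Rpl22, which changed sign (-0.01 without WT replicate 2 and -0.0547 without Yme1l-/- replicate 1).

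Depth did not limit the core members, which had at least 1297 fragments in each library. How fragments were divided among genes and near-identical copies limits Rpl17, Rpl21, Rpl23a and Rpl29 most. It also limits other members with many fragments at copies, such as Rpl14, Rps27a and Rpl7a. Each genotype is represented by cultures of cells expanded from single clones.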
